A study of Homo sapiens with 6 samples.

Results

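The genes described here were 10 members of 2 families of recently duplicated human genes. NPIPA1, NPIPA5, NPIPA7, NPIPB3, NPIPB4 and NPIPB5 belong to the NPIP family of chromosome 16, and STAG3L1, STAG3L2, STAG3L3 and STAG3L4 are partial copies of STAG3 on chromosome 7. They were found by gene name and are 10 of the 58735 genes of the deposited table. NPIPA7 and STAG3L1 were chosen by their values in the EGLN3 comparison, where both passed the corrected test described below, and the other 8 because they belong to the same families. The EGLN3 comparison of NPIPA7 and STAG3L1 is therefore a description. The question was whether the copies moved with these genes or against them, since reads from near-identical copies can be assigned to the wrong one.

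The data were 6 RNA sequencing libraries of NCI-N87, an established human gastric cancer cell line. The 3 libraries of the EGLN3 group carried the plasmid PLVX-IRES-Puro-EGLN3, which drives EGLN3, a prolyl hydroxylase of the oxygen sensing pathway, and the 3 control libraries carried the empty plasmid PLVX-IRES-Puro. All had 7 days of puromycin, which keeps cells that took up a plasmid, and the labels give 1 day with the plasmid for every library except EGLN3 replicate 3, which has 5 days. No label says that the libraries came from separate cultures, so the spread between them may be technical. Whether fewer cells of a kind or less RNA per cell lies behind a bulk level cannot be told apart.

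NPIP genes code for the nuclear pore complex interacting proteins. They lie in a block that was copied many times over chromosome 16 during great ape evolution, and their coding exons changed unusually fast, while what the proteins do is not settled. STAG3 is the subunit of cohesin, the ring that holds sister chromatids together, that acts in meiosis. Of its partial copies, STAG3L1, STAG3L2 and STAG3L3 lie in the duplicated blocks of chromosome 7 around the region deleted in Williams-Beuren syndrome. STAG3L4 lies apart from them, at chr7:67302621-67362950. The annotation lists all of these copies as transcribed pseudogenes.

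The following stretches are examples of how little can separate the copies, and so how few bases a read there has to tell them apart. Each is 100 bases of an annotated exon (GENCODE release 29, GRCh38), 5′ to 3′ on the gene's strand, with capitals at the positions at which the copies shown together are not all the same. The search covered 1 transcript per gene, of the same length in all copies where they had one, and only coding sequence in NPIP genes. Of the stretches that align without gaps within 1 exon of all 3 copies, the one with the most differences is shown. Stretches with over 10 differences were left out as not aligned. Gaps, which are not shown, also separate copies: the best alignment of NPIPA1 and NPIPA7 held 12 mismatches and 57 gap bases. In the NPIPA copies the stretch is coding sequence of exon 3, at chr16:16387399-16387498 on the plus strand for NPIPA7, chr16:14945574-14945673 on the plus strand for NPIPA1 and chr16:15370020-15370119 on the minus strand for NPIPA5. These copies differ at 2 of the 100 positions.
NPIPA7: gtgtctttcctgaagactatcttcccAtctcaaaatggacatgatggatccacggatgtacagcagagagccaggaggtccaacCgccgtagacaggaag
NPIPA1: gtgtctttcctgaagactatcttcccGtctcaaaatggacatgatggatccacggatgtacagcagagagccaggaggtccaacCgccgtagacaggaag
NPIPA5: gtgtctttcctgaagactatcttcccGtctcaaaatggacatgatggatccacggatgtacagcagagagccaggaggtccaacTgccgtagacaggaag

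In the NPIPB copies the stretch is coding sequence of exon 1 of a 1342-base transcript that each of the 3 genes has. It lies at chr16:21404898-21404997 on the minus strand for NPIPB3, chr16:21837349-21837448 on the minus strand for NPIPB4 and chr16:22533922-22534021 on the plus strand for NPIPB5. These copies differ at 3 of the 100 positions.
NPIPB3: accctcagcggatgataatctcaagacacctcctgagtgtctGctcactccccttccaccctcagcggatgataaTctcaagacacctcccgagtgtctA
NPIPB4: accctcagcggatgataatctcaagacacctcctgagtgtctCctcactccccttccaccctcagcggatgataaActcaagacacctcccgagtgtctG
NPIPB5: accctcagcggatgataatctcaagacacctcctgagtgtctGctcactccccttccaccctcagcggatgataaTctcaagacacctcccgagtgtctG

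STAG3L1, STAG3L2 and STAG3L3 are shown by their noncoding exon 1, at chr7:75359209-75359308 on the plus strand, chr7:74890489-74890588 on the minus strand and chr7:73005819-73005918 on the minus strand. They differ at 2 of the 100 positions.
STAG3L1: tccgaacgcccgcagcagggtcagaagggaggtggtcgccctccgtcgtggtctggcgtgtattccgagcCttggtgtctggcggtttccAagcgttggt
STAG3L2: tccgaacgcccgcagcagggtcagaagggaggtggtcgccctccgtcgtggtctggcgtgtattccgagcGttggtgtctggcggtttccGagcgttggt
STAG3L3: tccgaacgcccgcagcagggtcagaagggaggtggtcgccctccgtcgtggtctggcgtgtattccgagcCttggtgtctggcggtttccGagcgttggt

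To measure the overlap over whole genes, every 100-base word of a member's annotated transcripts was looked up in the transcripts of all other genes, in either orientation. NPIPB3 had the largest shared part of the members, with 96.8% of its words in some other gene, followed by NPIPA7 with 91.5%. The shared part was 81.2% in NPIPB5, 80.3% in NPIPA5, 74.9% in NPIPB4 and 74.2% in NPIPA1. It was 64.5% in STAG3L1, 59.0% in STAG3L3, 45.1% in STAG3L2 and 5.5% in STAG3L4. In STAG3L2 and STAG3L4 more words were unshared than shared, and most of the shared words of STAG3L4 lay in PMS2P4 in the opposite orientation (5.1% of its words).

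The partners, given here for words in the same orientation, were not the same for both chosen genes. NPIPA7 shared 82.1% of its words with NPIPA8, 44.7% with NPIPA1 and 34.2% with NPIPA5. It also shared 65.5% with AC126755.2, 64.9% with AC126755.7 and 65.5% with PKD1P1. The name PKD1P1 is carried by 2 pseudogene rows of the polycystin gene PKD1 next to NPIPA7. STAG3L1 shared 59.5% of its words with STAG3L3 and 23.5% with STAG3L2. The best-scoring alignment of STAG3L1 and STAG3L3 transcripts was 1005 bases long with 99.7% identical bases, and that of STAG3L1 and STAG3L2 was 893 bases long with 98.4%. NPIPB3 and NPIPB5 were identical at 99.9% of 1342 bases, and NPIPA1 and NPIPA7 at 94.0% of 1141 bases, gaps counted as differences.

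**Figure D1:**
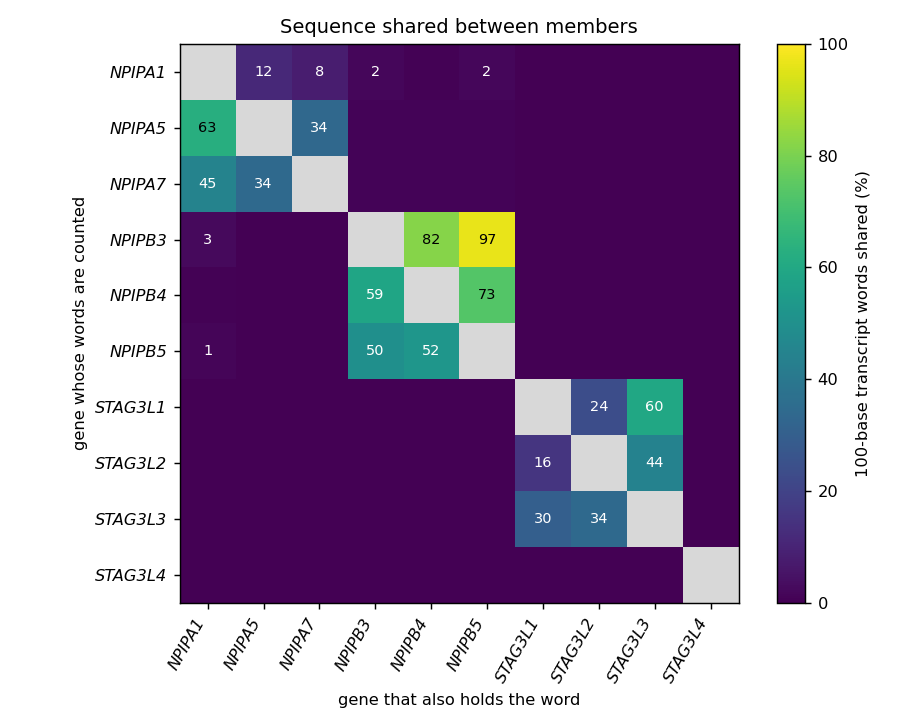
Percentage of the 100-base transcript words of the gene in each row that also occur, in the same orientation, in transcripts of the gene in each column, for the 10 members, with percentages of at least 1 printed and the diagonal in grey. Sharing is confined to blocks of the NPIPA, NPIPB and STAG3L1 to STAG3L3 genes at this scale, apart from a few percent between NPIPA1 and the NPIPB genes, and 96.8% of NPIPB3 words occur in NPIPB5.

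Levels between libraries are given in CPM, the counts scaled to the size of the library with TMM factors, and levels between genes in FPKM, which are also per gene length. Library totals ran from 15157265 to 16767383 counts. EGLN3 had 9 to 11 counts in the control libraries and 7298, 27674 and 27494 in the EGLN3 libraries by replicate number, so every library matched its label. The first principal component of all tested genes held 70.03% of the variance and put EGLN3 replicate 1 at 59.36 and EGLN3 replicate 3 at -45.87, with the control libraries between them at -36.18, 11.54 and 34.44. The epithelial markers EPCAM, CDH1, KRT8, KRT18, KRT19 and ERBB2 were present in every library (EPCAM at 142.9 to 185 FPKM). Of 5 fibroblast markers, COL1A2 and LUM had 0 counts over the 6 libraries, DCN had 1, COL3A1 had 11 and COL1A1 had 433 (0.375 to 0.519 FPKM). Of 5 germ cell markers, DAZL had 0 counts, DDX4 had 3, SYCP3 had 23, SMC1B had 32 and REC8 had 1002 (1.81 to 3.71 FPKM). The leukocyte and endothelial markers had 1 to 75 counts.

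Over the whole table, edgeR's quasi-likelihood test without a covariate called 1 of 15726 tested genes at an adjusted p under 0.05, which is 0.00636% and is EGLN3 itself, and 174 genes had an unadjusted p under 0.05. None of the 9 tested members was called in that fit, and 1 of them, NPIPA7, had an unadjusted p under 0.05. A corrected fit, with 1 surrogate variable for the library axis and trends on GC content and length removed, called 155 genes (0.986%). Among them were NPIPA7 and STAG3L1, as among the 4.76% of genes called with the surrogate variable alone, and nothing is read from these counts because they chose both genes. NPIPA5 did not pass the filter on low counts, with 8, 5 and 6 counts in the control libraries and 3, 8 and 1 in the EGLN3 libraries.

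Compared per length, NPIPB5 had the highest level of the members, at 8.50 ± 0.069 FPKM in the control libraries (SD, n = 3), and its spread did not touch that of the next gene. STAG3L2 followed at 4.52 ± 0.641 FPKM. STAG3L1 at 2.88 ± 0.733, NPIPA1 at 2.73 ± 0.735 and STAG3L4 at 2.56 ± 0.569 FPKM lay within each other's spread. NPIPB3 at 1.496 ± 0.340 and STAG3L3 at 1.48 ± 0.133 FPKM did so too, with NPIPA7 at 1.04 ± 0.519 FPKM. NPIPB4 at 0.491 ± 0.0525 and NPIPA5 at 0.252 ± 0.0467 FPKM were the lowest. In the EGLN3 libraries STAG3L1 stood at 5.67 ± 2.63 FPKM, within the spread of STAG3L2 at 5.10 ± 1.09 FPKM.

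**Figure D2:**
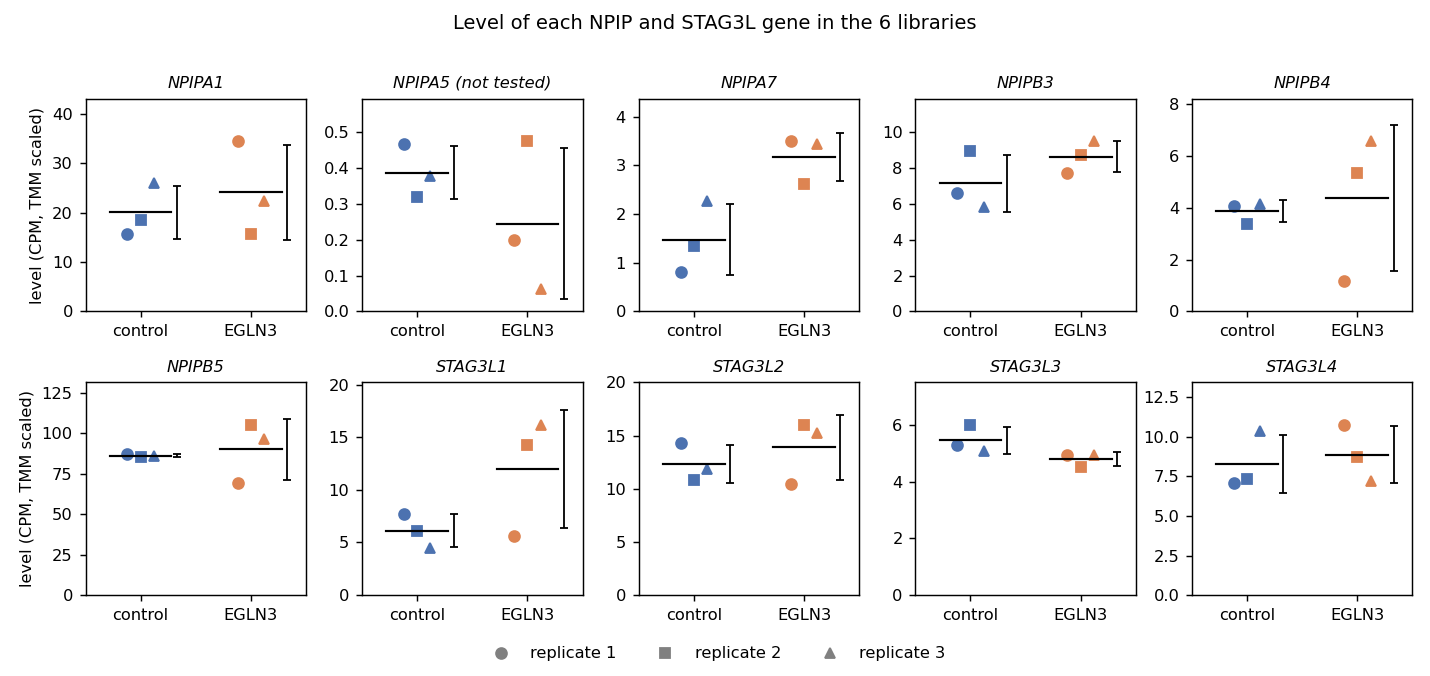
Level of each member in CPM (counts scaled to library size, with TMM factors), by group, with 1 point per library, a line at the group mean and a bar of 1 SD (n = 3). NPIPA7 lies higher in all EGLN3 libraries (2.61 to 3.50 CPM) than in all control libraries (0.815 to 2.26 CPM), and STAG3L1 is high in EGLN3 replicates 2 and 3 alone.

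STAG3L1 was higher on average with EGLN3, through 2 of the 3 libraries. The level was 7.68, 6.13 and 4.52 CPM in the control libraries and 5.61, 14.2 and 16.2 CPM in the EGLN3 libraries, in the order of their replicate numbers. The groups overlapped: EGLN3 replicates 2 and 3 lay above all controls, and EGLN3 replicate 1 lay between the controls. That library also had the lowest EGLN3 level of its group, 481.4 CPM against 1640 and 1717 CPM. It lay at one end of the first principal component too, at 59.36, and STAG3L1 had r = -0.807 with that component. In the controls STAG3L1 also fell as the component rose (-36.18, 11.54 and 34.44). Among the EGLN3 libraries the EGLN3 level and this component cannot be told apart, and the part of either in the STAG3L1 level was not tested. The log2 fold change was 0.97 (SE 0.41) without a covariate and 0.96 (SE 0.13) in the corrected fit, whose SE may be too small. That fit chose STAG3L1, so its calls of the gene with each of the 6 libraries left out in turn are a description and add no support.

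The copy closest to STAG3L1 in sequence did not follow it. STAG3L3 had 5.295, 6.001 and 5.084 CPM in the control libraries and 4.95, 4.51 and 4.93 CPM in the EGLN3 libraries. All EGLN3 libraries lay below all controls, by a small margin. Groups that do not overlap, in either direction, were found in 6.26% of all tested genes. The log2 fold change was -0.19 (SE 0.16, edgeR adjusted p = 0.9999), and -0.13 (adjusted p = 0.7948) in the corrected fit.

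STAG3L2 had 14.3, 10.8 and 11.9 CPM in the control libraries and 10.4, 16 and 15.2 CPM in the EGLN3 libraries. Like STAG3L1 it was highest in EGLN3 replicates 2 and 3 and low in replicate 1, and the groups overlapped. Its log2 fold change was 0.17 (SE 0.21, edgeR adjusted p = 0.9999), and 0.19 (adjusted p = 0.4946) in the corrected fit. STAG3L4, which shares the fewest words with other genes, had 7.10, 7.34 and 10.4 CPM in the control libraries and 10.8, 8.71 and 7.18 CPM in the EGLN3 libraries. Its log2 fold change of 0.10 (SE 0.23) turned to -0.041 without EGLN3 replicate 1.

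NPIPA7 was higher in every EGLN3 library than in every control library, at low counts. Its counts were 14, 21 and 36 in the control libraries and 53, 44 and 55 in the EGLN3 libraries. In CPM these were 0.815, 1.34 and 2.26 against 3.50, 2.61 and 3.43. EGLN3 libraries that all lie above the controls were found in 2.64% of tested genes, and groups that do not overlap in either direction in 6.26%. NPIPA7 was chosen by this comparison, so nothing is read from these shares. The log2 fold change was 1.11 (SE 0.38) without a covariate and 1.11 (SE 0.27) in the corrected fit. The corrected fit still called NPIPA7 without control replicate 3, where the change was 1.49, and lost the call when any 1 of the other 5 libraries was left out, with changes of 0.83 to 1.62 and adjusted p = 0.05809 to 0.394. That fit chose NPIPA7, so its calls of the gene are a description and add no support.

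NPIPA1, the most abundant NPIPA copy, had 15.7, 18.5 and 26.1 CPM in the control libraries and 34.4, 15.6 and 22.3 CPM in the EGLN3 libraries. EGLN3 replicate 1 was the highest and EGLN3 replicate 2 the lowest of the 6 libraries, so the groups overlapped over their full range. The log2 fold change was 0.26 (SE 0.33, edgeR adjusted p = 0.9999), and -0.074 without EGLN3 replicate 1. In the corrected fit it was 0.37 (adjusted p = 0.4455), and 0.55 (adjusted p = 0.004819) when EGLN3 replicate 2 was left out. The corresponding row of NPIPA8, which holds most NPIPA7 words, had 2 counts in all 6 libraries together. AC126755.2, which holds 65.5% of NPIPA7 words, had 531 counts. Its log2 fold change was 0.11 (SE 0.26), and its r with NPIPA7 over the 6 libraries was 0.34. The span of NPIPA1, introns included, overlaps that of the pseudogene AC138932.1 on the same strand over 12907 bases. Reads that lie in exons of both cannot be assigned to either with certainty.

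The NPIPB copies showed no common direction that held in every fit. NPIPB3 had 6.63, 8.94 and 5.84 CPM in the control libraries and 7.72, 8.71 and 9.49 CPM in the EGLN3 libraries, a log2 fold change of 0.28 (SE 0.20; edgeR adjusted p = 0.9999). NPIPB5 had 87.2, 85.1 and 85.8 CPM against 68.9, 105.0 and 96.1 CPM, close together in the controls and spread to both sides of them with EGLN3. Its log2 fold change was 0.065 (SE 0.18), and -0.064 without EGLN3 replicate 2. NPIPB4 had 4.07, 3.38 and 4.14 CPM against 1.19, 5.34 and 6.56 CPM. Its log2 fold change of 0.18 (SE 0.54) turned to -0.065 with the replicate numbers as a block, to -0.047 with the surrogate variable alone and to -0.24 without EGLN3 replicate 3. By gene span, introns included, NPIPB5 overlaps SMG1P1 over 13100 bases of the same strand. In the same measure NPIPB3 overlaps SMG1P3 over 1885 bases and NPIPB4 overlaps SMG1P4 over 1490 bases.

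**Figure D3:**
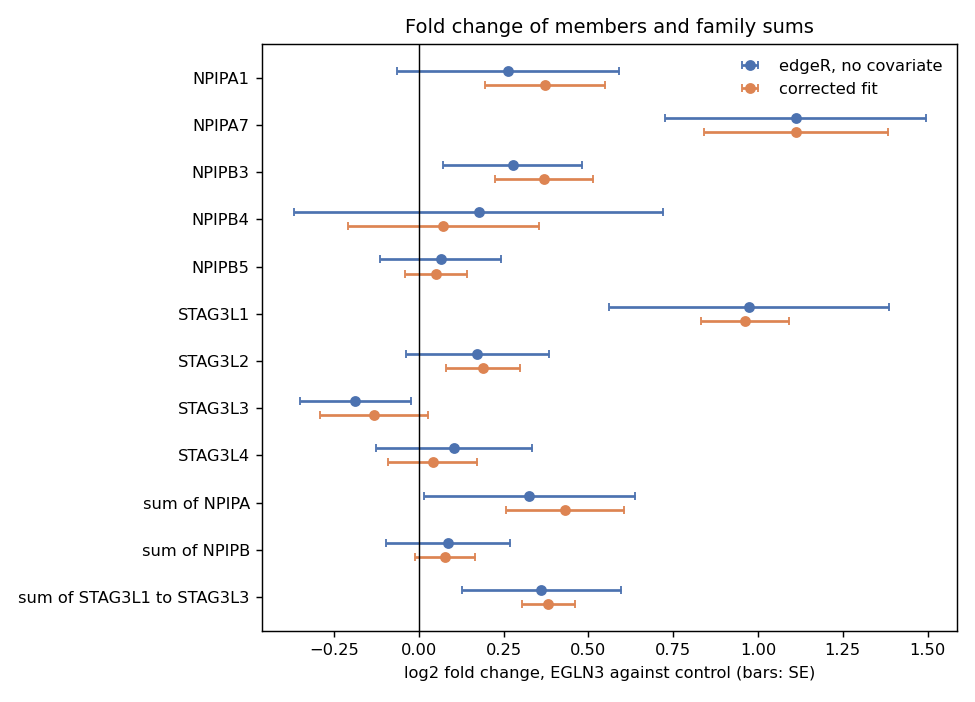
Log2 fold change of EGLN3 against control with its SE for the 9 tested members and the 3 family sums, without a covariate and in the corrected fit. NPIPA7 and STAG3L1, chosen for this contrast, lie near 1 in both fits, and the other members lie between -0.19 and 0.37.

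A read assigned to one copy in place of another leaves a sum as it was only if both copies are in the sum. The members of each family were therefore also summed and fitted in place of their single rows. Reads passed to or from rows outside a sum, or left uncounted, would still change it. The STAG3L1 to STAG3L3 sum had 27.3, 22.9 and 21.5 CPM in the control libraries and 21.0, 34.7 and 36.3 CPM in the EGLN3 libraries. It followed STAG3L1, high in EGLN3 replicates 2 and 3, and the groups overlapped. The log2 fold change was 0.36 (SE 0.24, edgeR adjusted p = 1), with an exact permutation p of 0.4, where 3 libraries against 3 cannot go below 0.1. It was 0.22 without EGLN3 replicate 3 and 0.59 without EGLN3 replicate 1. In the corrected fit it was 0.38 (SE 0.078, adjusted p = 0.01195), a value that contains the chosen gene, and the call was lost without control replicate 1, EGLN3 replicate 2 or EGLN3 replicate 3 (adjusted p = 0.07865, 0.08315 and 0.06628).

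Set against each other in CPM, the difference between group means was 5.89 for STAG3L1, 1.56 for STAG3L2 and -0.665 for STAG3L3. The lower mean of STAG3L3 was thus small beside the difference in STAG3L1, and the mean of STAG3L2 differed in the same direction as that of STAG3L1. How reads that fit several copies were divided among them was not tested.

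The NPIPA sum had 16.99, 20.17 and 28.68 CPM in the control libraries and 38.1, 18.7 and 25.8 CPM in the EGLN3 libraries, with NPIPA1 making up most of it. Its log2 fold change was 0.33 (SE 0.31, edgeR adjusted p = 1) with an exact permutation p of 0.6, and it was 0.030 without EGLN3 replicate 1 and 0.57 without control replicate 3. NPIPA8, PKD1P1 and AC126755.2, which share more words with NPIPA7 than NPIPA1 does, lie outside this sum. In turn, 8.2% of NPIPA1 words occur in NPIPA7, so most of the NPIPA1 level may come from sequence that NPIPA7 lacks. Which part of the NPIPA1 counts lay in shared sequence was not tested. Summed over 12 rows, NPIPA7 and those that share at least 10% of its words, the log2 fold change was 0.24 (SE 0.27). The difference between group means was 1.71 CPM for NPIPA7, 4.01 CPM for NPIPA1 and -0.142 CPM for NPIPA5. The NPIPB sum had 97.9, 97.4 and 95.8 CPM against 77.8, 119.0 and 112.1 CPM. Its log2 fold change was 0.086 (SE 0.18, exact permutation p = 1), and it was -0.035 without EGLN3 replicate 2.

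**Figure D4:**
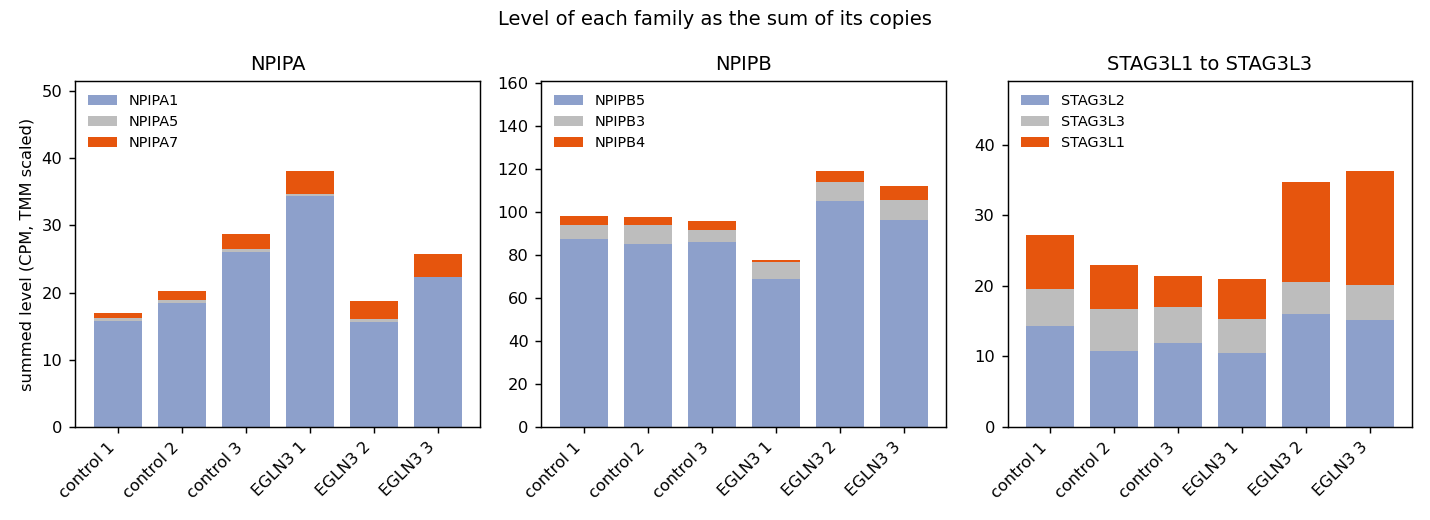
Summed level of each family in CPM after TMM scaling, not per gene length, in the 6 libraries, with each bar divided into its copies. The STAG3L1 part widens in EGLN3 replicates 2 and 3 (14.2 and 16.2 CPM), while NPIPA7 remains a thin part of the NPIPA bars and NPIPB5 makes up most of the NPIPB bars.

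The share of one copy among its family does not depend on how libraries are scaled, but these counts are not per gene length. STAG3L1 held 28.1%, 26.7% and 21.1% of the STAG3L1 to STAG3L3 counts in the control libraries and 26.7%, 41.0% and 44.5% in the EGLN3 libraries. In EGLN3 replicates 2 and 3 the exact 95% binomial intervals, which cover counting error only, were 36.9% to 45.1% and 40.4% to 48.6%, above those of the other 4 libraries, of which control replicate 1 reached highest, to 32.5%. NPIPA7 held 4.79%, 6.65% and 7.88% of the NPIPA1, NPIPA5 and NPIPA7 counts in the control libraries and 9.17%, 14.0% and 13.3% in the EGLN3 libraries. The intervals of all EGLN3 libraries (lowest bounds 6.94%, 10.3% and 10.2%) overlapped that of control replicate 3, at 5.58% to 10.7%. The gene length is 1401 bases for NPIPA7 and 7277 for NPIPA1. Per length, NPIPA7 stood at 1.04 FPKM and NPIPA1 at 2.73 FPKM in the control libraries. In the EGLN3 libraries they stood at 2.25 and 3.28 FPKM. In the NPIPB family NPIPB5 held 88.7% ± 1.17 of the counts in the control and 87.5% ± 1.56 in the EGLN3 libraries (SD, n = 3), a difference within the spread.

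Across the 6 libraries, of 7 pairs of a chosen gene and a copy, STAG3L1 and STAG3L2 had the highest correlation of log2 CPM. Pearson's r was 0.853 (exact permutation p = 0.0375, adjusted over the 7 pairs 0.2625) and Spearman's rho 0.771 (exact permutation p = 0.1028, adjusted 0.6125). It was 0.561 without EGLN3 replicates 2 and 3, the libraries farthest from the STAG3L1 median, and 0.885 with the group means removed. Among all tested genes 8.305% had a higher r with STAG3L1 than STAG3L2 had. Both genes also followed the first principal component, with r of -0.807 and -0.881.

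STAG3L3 had r = -0.515 with STAG3L1 (exact permutation p = 0.3111, adjusted 0.5444; rho -0.486, exact permutation p = 0.3556, adjusted 0.6223). This came to 0.339 without EGLN3 replicates 2 and 3 and to -0.090 with the group means removed, so the negative sign rests on those libraries. With the trends on GC content and length removed, the r of STAG3L3 was 0.073. Among all tested genes 64.54% had a higher r with STAG3L1 than STAG3L3 had. STAG3L4 had r = -0.519 (exact permutation p = 0.2708, adjusted 0.5444; rho -0.657, exact permutation p = 0.175, adjusted 0.6125), -0.809 without EGLN3 replicates 2 and 3 and -0.865 with the group means removed. STAG3L4 followed the first principal component in the opposite sense, with r = 0.830.

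NPIPA7 and NPIPA1 had r = 0.634 (exact permutation p = 0.1736, adjusted 0.5444; rho 0.543, exact permutation p = 0.2972, adjusted 0.6223), 0.381 without control replicates 1 and 2 and 0.741 with the group means removed. Of all tested genes 6.715% had a higher r with NPIPA7. The NPIPB copies had r = 0.341 (NPIPB3, exact permutation p = 0.5083, adjusted 0.7116), -0.147 (NPIPB4, exact permutation p = 0.7889, adjusted 0.8944) and -0.059 (NPIPB5, exact permutation p = 0.8944, adjusted 0.8944) with NPIPA7. Their rho values were 0.314 (exact permutation p = 0.5639, adjusted 0.7895), 0.086 and -0.086 (exact permutation p = 0.9194 for both, adjusted 0.9194). Without control replicates 1 and 2 the r values were 0.673, -0.366 and -0.372, and with the group means removed -0.291, -0.131 and -0.258. No pair passed the adjustment.

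**Figure D5:**
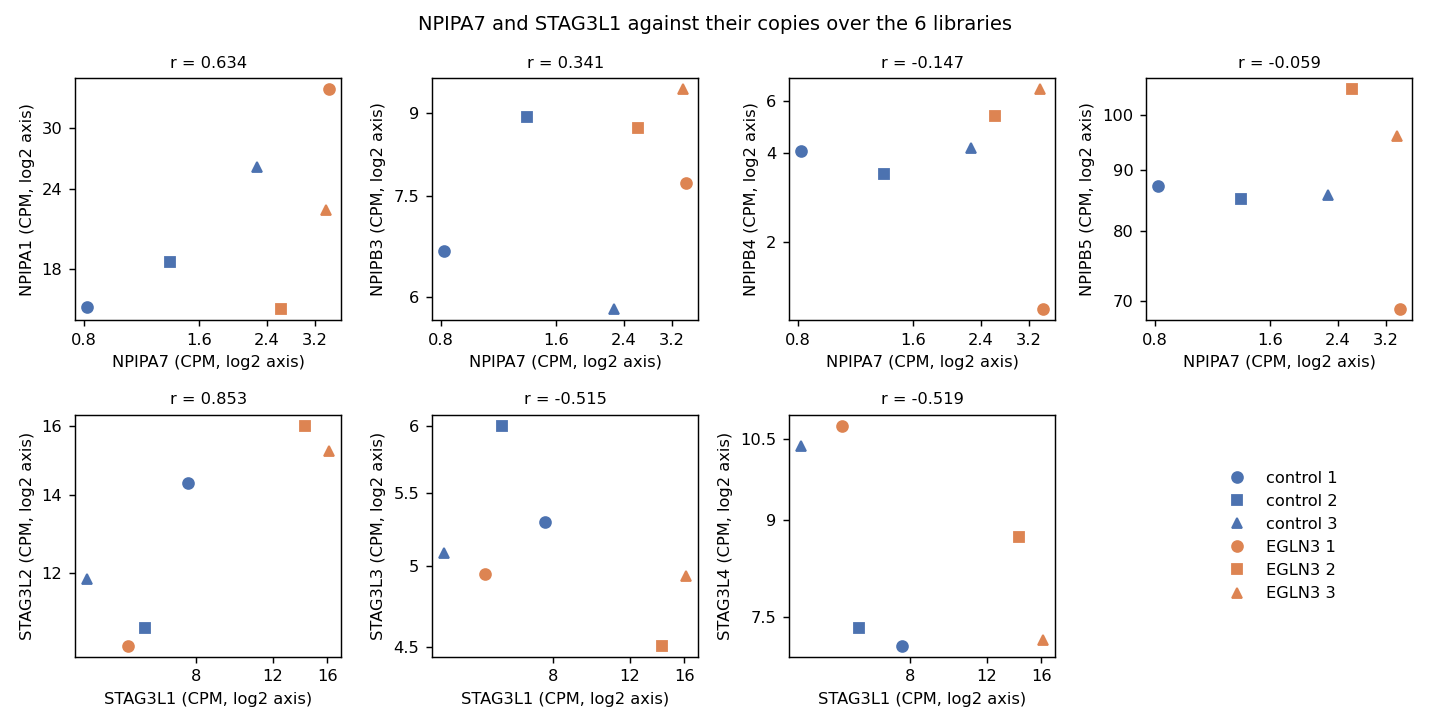
Level of NPIPA7 (upper row) and STAG3L1 (lower row) against each tested copy of its family in the 6 libraries, in CPM on log2 axes, with Pearson's r of log2 CPM above each panel. STAG3L2 is high where STAG3L1 is high (r = 0.853), and STAG3L3 is not (r = -0.515).

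The protein-coding genes of at least 1 CPM whose levels were most like those of STAG3L1 over the 6 libraries were RPAP3 (r = 0.997), a cofactor of a chaperone complex, ESCO1 (r = 0.994), an acetyltransferase that acts on cohesin, and SC5D (r = 0.994), an enzyme of cholesterol synthesis. For NPIPA7 they were SCOC (r = 0.986), MTERF1 (r = 0.985), a mitochondrial transcription factor, and RAB2A (r = 0.984), a small GTPase of vesicle transport. Each was the top of a search over all such genes with 6 points. None was a copy of the gene it resembled, and their log2 fold changes of 0.064 to 0.30 were smaller than those of NPIPA7 and STAG3L1.

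Further copies outside the members were examined as lists. Of 15 other NPIPA and NPIPB rows, 7 could be tested, 4 of them with a positive log2 fold change and 0 called by edgeR (0 with an unadjusted p under 0.05, and 0 in the corrected fit), with a median of 0.054 beside 0.010 over all tested genes. STAG3 itself, the meiotic subunit, had 5.00, 2.55 and 2.32 CPM in the control libraries and 1.91, 4.62 and 5.74 CPM in the EGLN3 libraries (log2 fold change 0.31, SE 0.47, edgeR adjusted p = 0.9999). STAG3L5P, the most abundant STAG3 copy, had 25.7, 16.9 and 13.9 CPM against 8.25, 22.1 and 20.6 CPM, a log2 fold change of -0.15 (SE 0.41, edgeR adjusted p = 0.9999). Both were low in EGLN3 replicate 1. With STAG3L4, STAG3L5P and a readthrough row of STAG3L5P counted in, the STAG3L sum had a log2 fold change of 0.15 (SE 0.23).

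Among the other genes of cohesin, the complex that STAG3 belongs to, 18 of 20 were tested and 14 of these had a positive log2 fold change, with a median of 0.12 and 0 called (0 also with an unadjusted p under 0.05 and in the corrected fit). In the corrected fit 10 of 18 were positive, with a median of 0.013. The partners of STAG3 in meiosis were low or absent: RAD21L1 had 0 counts and SMC1B 32 counts in all 6 libraries together, while REC8 had 7.10 to 14.3 CPM.

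The other duplicated genes of these blocks held no call. On chromosome 16, 22 of 30 listed genes were tested, 14 of them with a positive log2 fold change, and the median was 0.087. On chromosome 7, 29 of 65 were tested, 14 with a positive log2 fold change, and the median was -0.018. The edgeR test called 0 of either list, as did the corrected fit, and 0 had an unadjusted p under 0.05. Named after their values were seen, the tested genes of these lists whose groups did not overlap were SMG1P2 (0.42) and ABCC6 (-0.66) on chromosome 16 and SPDYE3 (-0.31) and SPDYE18 (0.59) on chromosome 7. These were 2 of 22 and 2 of 29 tested genes, beside 6.26% of all tested genes, and nothing is read from them.

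The nearest tested genes on the chromosome were also read out. Around STAG3L1 these were PMS2P2, GTF2IP1 and GTF2IRD2B on the one side and TRIM73, NSUN5P1 and POM121C on the other, with log2 fold changes from -0.45 (TRIM73) to 0.018 (POM121C, a nuclear pore gene). Around NPIPA7 they ran from -0.44 (XYLT1, a xylosyltransferase) to 0.13 (PKD1P1). Those after NPIPA7 lay far off, with start positions 722714 to 1979031 bases from its own. PKD1P1 and AC126755.2, which are among these genes, also share words with NPIPA7. None of these neighbours was called in either fit. By gene span, introns included, STAG3L1 overlaps TRIM73 on the same strand over 321 bases. TRIM73 had 64 counts in all 6 libraries against 884 for STAG3L1.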

How the data were processed

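Gene counts and FPKM of 6 NCI-N87 libraries were used, 3 per group, grouped by the titles in the labels. The deposited gene counts are unscaled whole numbers, and the authors' FPKM are scaled for length and library. Per the submitters' processing notes, the tools were HISAT2 2.0.5 with featureCounts 1.5.0-p3 and DESeq2 1.20.0, on the build hg38. Neither strand use, nor the annotation, nor how reads that fit several copies were counted is given in the sources used here. Without strand, a gene and its antisense neighbours cannot be told apart.

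The members, lists and corrected fit were chosen with earlier results of these data known. After filterByExpr and TMM scaling, counts were tested in R 4.3.3 by edgeR 4.0.16 (robust quasi-likelihood test without covariates). The Benjamini-Hochberg adjustment ran over all 15726 tested genes, and an adjusted p under 0.05 was a call. Library totals of 15157265 to 16767383 counts limit the precision of members with few counts. The corrected fit added 1 surrogate variable (sva 3.50.0) and splines with 5 degrees of freedom on GC content and length. Its SEs may be too small, since the surrogate variable comes from the same 6 libraries. Family sums replaced their rows in the table. Correlations used log2 CPM with a prior count of 2. The scripts were tested on simulated data.

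Sequences were compared with GENCODE release 29 transcripts, which matched 58676 of 58735 genes and all 10 members. Words of 100 bases were matched in either orientation for the total shared part of a gene, and in the same orientation for pairs of genes unless stated otherwise. No protein sequences were used. Alternatives were DESeq2 1.42.0, RLE scaling, no filter, the surrogate variable or the trends alone, the replicate block, each library left out, and limma 3.58.1 on log2(FPKM + 1) and log2(FPKM + 0.1). Sums over all rows that share sequence and the corrected fit with libraries left out were chosen after seeing the data.

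The text names the 10 members, EGLN3, copies with at least 10% of a family's counts, and for NPIPA7 and STAG3L1 the 3 protein-coding genes with the highest r. Adjusted p-values within the lists were tied, so the rule to name the 2 smallest named none. Neighbours, further sequence partners and meiotic cohesin genes were named after their values were seen.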

Additional observations from a re-analysis of the deposited data

How the results depend on the processing

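The number of called genes was 1 as described, 749 with the surrogate variable, 155 in the corrected fit, and 0 to 1 without covariates when a library was left out. The corrected fit called 49 to 217 genes with a library left out, the fewest without EGLN3 replicate 3 (49), EGLN3 replicate 1 (54) and EGLN3 replicate 2 (71). The same replicate numbers did not pair the libraries (correlations of their deviations -0.793, -0.176 and -0.674), and the replicate block called 0 genes (23 with an unadjusted p under 0.05). Members called were 0 as described, and 2, NPIPA7 and STAG3L1, both with the surrogate variable and in the corrected fit. Low counts kept NPIPA5 out of the test, and the SEs of the corrected fit may be too small.

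NPIPA7, NPIPB3, STAG3L1 and STAG3L2 stayed positive and STAG3L3 negative under all 21 alternatives. NPIPA1, NPIPB4, NPIPB5 and STAG3L4 changed sign in some, and NPIPA5 had a value only without the filter (-0.64). Without covariates and with a library left out, NPIPA1 ran from -0.074 to 0.49, NPIPB4 from -0.24 to 0.63, NPIPB5 from -0.064 to 0.24, STAG3L4 from -0.041 to 0.30 and the NPIPB sum from -0.035 to 0.27. The STAG3L1 to STAG3L3 sum ran from 0.22 to 0.59 and the NPIPA sum from 0.030 to 0.57. NPIPB4 was -0.065 with the block, -0.047 with the surrogate variable alone and -0.055 by limma on log2(FPKM + 0.1). In the corrected fit, NPIPB4 was -0.44 without control replicate 1, -0.034 without EGLN3 replicate 2 and -0.070 without EGLN3 replicate 3. There NPIPB5 was -0.062 without control replicate 1 and -0.051 without EGLN3 replicate 2, and STAG3L4 was -0.052 without control replicate 2 and -0.029 without EGLN3 replicate 2. The NPIPB sum was -0.044 without control replicate 1 and -0.0135 without EGLN3 replicate 2. The cause of these sign changes was not tested.

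The STAG3L1 to STAG3L3 sum passed the threshold with the surrogate variable (0.30) and in the corrected fit (0.38), there also without control replicate 2 (0.38), control replicate 3 (0.43) and EGLN3 replicate 1 (0.47). The NPIPA sum passed in the corrected fit without EGLN3 replicate 2 alone (0.59). Both sums contain a gene chosen by this comparison, so their calls are a description and add no support. The share of NPIPA7 differed by 3.255 percentage points when all rows that share its sequence were the denominator. Copies with a positive r with NPIPA7 were 2 of 4 as described, 4 with the trends removed, 1 with the group means removed and 2 to 4 with a library left out, and for STAG3L1 they were 1 of 3, and 2 with the trends removed. The cause was not tested.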
